A study of Mus musculus with 6 samples.

Results

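The transcripts described here encode subunits of respiratory complexes II, III, IV and V, with cytochrome c, in mouse hind leg muscle. They are the genes of the expression table whose symbols name succinate dehydrogenase (Sdha to Sdhd), complex III (Uqcr), cytochrome c1 and cytochrome c (Cyc1 and Cycs), cytochrome c oxidase (Cox4 to Cox8) or ATP synthase (Atp5). This rule used names only and took 47 of the 16759 genes listed, namely 4 of complex II, 10 of complex III with cytochrome c, 16 of complex IV and 17 of complex V. RNA sequencing was run on 3 control (Con) mice and 3 exercise (EX) mice, 1 library each. All were male C57BL/6J mice of 8 weeks at the start. EX mice ran on a treadmill for 60 min per day on 5 days per week over 6 weeks, which came to 22 km, and the tissue was taken 24 h after their final run. Con mice had no treadmill training. The muscle was taken after perfusion with PBS and cleared of the fat between muscles, and which leg muscles were pooled is not given in the sources used here. A bulk library holds every cell type of the sample, so fewer fibres of a kind and less RNA per fibre cannot be told apart.

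The inner mitochondrial membrane holds the electron transport chain and ATP synthase. Complex II passes electrons from succinate to ubiquinone, complex III hands them to cytochrome c, complex IV uses them to reduce oxygen, and complex V lets protons flow back through its membrane c ring to drive ATP synthesis in its F1 head. All subunits of complex II are encoded in the nucleus, whereas complexes III, IV and V join nuclear subunits with a few made from mitochondrial DNA, which were not analysed here. Muscle is known for its dense mitochondria and for heart isoforms of several complex IV subunits, which take the place of the liver isoforms of most other tissues.

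Counts on genes totalled between 13845362 and 16240431 per library, and levels are given as CPM, the depth-scaled count of a gene after adjustment of the libraries with the trimmed mean of M-values (TMM). Of the 47 members, 46 had a mean of at least 1 FPKM (the count scaled by gene length and depth) and entered the test. The exception was Cox6b2, the testis isoform of subunit 6b, which had between 0 and 4 counts per library. At this depth the standard errors of the members' log2 fold changes ran from 0.03 to 0.19 with a median of 0.04. A count of 0 would allow between 0.188 and 0.215 CPM, for counting error only. RefSeq annotates pseudogenes of several members, among them Atp5k, Atp5l, Atp5c1, Atp5pb, Cycs, Uqcrh, Cox5b and Cox7c, and how reads shared with them were counted is not given in the sources used here, so these values are uncertain to that extent.

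The tissue label was checked against fibre markers. The 12 fast fibre sarcomere markers summed to between 163900 and 164600 CPM in Con libraries and between 175700 and 182900 CPM in EX libraries, 8 of them passing as higher and 2 as lower (Myh1 and Myh2). The 10 slow fibre sarcomere markers summed to between 167.5 and 177.7 CPM in Con libraries and between 429.7 and 456.6 CPM in EX libraries. Of these, 8 passed as higher and 2 as lower (Myoz2 and Pln), and Myh7, the slow myosin heavy chain, was at 0.933, 0.891 and 1.19 CPM in Con libraries against 99.5, 110.6 and 96.7 CPM in EX libraries. The part of fibre composition in the subunit values below was not tested. Of 6 heart muscle markers in the table, 2 reached the filter and both were higher (Myl4 and Tnnt2), with the sum of the 6 between 4.70 and 5.55 CPM in Con and between 7.54 and 8.95 CPM in EX libraries.

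The promoters of 4 ATP synthase genes that were higher in EX muscle are shown as examples. They were chosen because they hold matches to the motifs named below, for Atp5g1 to CCAAT only. The windows of Atp5o and Uqcrfs1, also higher in EX muscle, held no match. Those of Atp5e (4 matches) and Cycs (1 match), also higher, are not shown. Nor is that of Cox6a1, which did not pass the test and held 5 matches. Each window shown is the 250 bases before the transcript start, on the minus strand of GRCm38.p6, from RefSeq, written 5′ to 3′. Capitals mark matches on either strand to GCGC followed by any base and TGCGC (the NRF1 motif), AAGGTCA (the estrogen-related receptor motif), GGGCGG (SP1), CAGCTG (an E-box) or CCAAT. The c ring genes Atp5g1 (chr11:96075632-96075881) and Atp5g3 (chr2:73911327-73911576) come first, followed by the peripheral stalk gene Atp5h (chr11:115419920-115420169) and the membrane subunit gene Atp5k (chr5:108434400-108434649).
Atp5g1: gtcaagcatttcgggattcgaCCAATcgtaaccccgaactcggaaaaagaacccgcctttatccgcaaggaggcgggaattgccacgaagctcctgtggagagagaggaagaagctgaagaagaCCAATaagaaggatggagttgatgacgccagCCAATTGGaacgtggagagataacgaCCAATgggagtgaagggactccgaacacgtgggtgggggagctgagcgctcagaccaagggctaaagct
Atp5g3: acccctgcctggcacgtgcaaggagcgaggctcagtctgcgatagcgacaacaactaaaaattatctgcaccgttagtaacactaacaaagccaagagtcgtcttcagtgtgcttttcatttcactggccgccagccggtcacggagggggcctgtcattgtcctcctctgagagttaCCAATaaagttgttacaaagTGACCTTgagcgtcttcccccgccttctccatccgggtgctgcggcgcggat
Atp5h: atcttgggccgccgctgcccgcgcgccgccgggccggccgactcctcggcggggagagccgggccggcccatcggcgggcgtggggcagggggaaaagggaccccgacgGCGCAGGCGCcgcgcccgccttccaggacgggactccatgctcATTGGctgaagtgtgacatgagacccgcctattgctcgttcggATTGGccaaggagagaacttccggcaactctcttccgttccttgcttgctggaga
Atp5k: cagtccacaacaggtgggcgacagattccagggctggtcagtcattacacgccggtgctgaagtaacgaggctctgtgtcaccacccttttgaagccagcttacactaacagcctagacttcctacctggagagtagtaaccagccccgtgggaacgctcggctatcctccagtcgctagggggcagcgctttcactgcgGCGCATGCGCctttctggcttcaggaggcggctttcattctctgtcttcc

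The Atp5g1 window held 5 CCAAT matches, one pair of which overlapped on opposite strands. The Atp5g3 window held 1 match to AAGGTCA, read on the other strand between 52 and 46 bases before the start, and 1 CCAAT match between 72 and 68 bases before it. The NRF1 motif stood between 141 and 132 bases before the start of Atp5h and between 50 and 41 bases before the start of Atp5k, where it read as a match on both strands.

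RefSeq gave promoters for 36 of the 47 members. The NRF1 motif was found in 7 of these 36 (19.4%), against 3.74% of all 32851 promoter windows of the same length and 4.23% of the genes. CCAAT was found in 20 of the 36 (55.6%), against 33.8% of all windows and 37.5% of the genes. AAGGTCA was in 2 of the 36 (5.56%), against 4.7% of the genes, CAGCTG in 2 (5.56%), against 14.7%, and GGGCGG in 11 (30.6%), against 35.4%. The shares of all windows were 4.08% for AAGGTCA, 13.0% for CAGCTG and 32.7% for GGGCGG. Among the 8 members with a promoter in the table that passed the test as higher in EX muscle, 2 held the NRF1 motif, 1 held AAGGTCA, 5 held CCAAT, 1 held GGGCGG and none held CAGCTG. Among the other 28 members, the same motifs were in 5, 1, 15, 10 and 2 promoters. Such a match describes the letters of the window and not binding. Promoters of Uqcrc2, Cyc1, Uqcrq, Sdhc, Cox4i1, Atp5mpl, Cox6c, Uqcrb, Atp5a1, Cox4i2 and Cox6a2 were not analysed here.

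Across the 46 members tested, EX against Con muscle gave 9 transcripts higher and 1 lower at an adjusted p under 0.05 (edgeR, quasi-likelihood test), which is 19.57% higher and 2.174% lower. Over all 10883 genes tested, 9.11% passed as higher and 8.8% as lower, and 17.9% passed in either direction. The 9 higher members were Cycs, Uqcrb and Uqcrfs1 of the cytochrome c and complex III group and Atp5k, Atp5o, Atp5g1, Atp5h, Atp5e and Atp5g3 of complex V, with log2 fold changes between 0.12 and 0.18. The 1 lower member was Cox6a2, a complex IV isoform, at -0.20. The median log2 fold change was 0.04 over the members, with 30 above 0 and 16 below, and 0.00 in size over all genes tested. EX values lay above all Con values for 15 members, against 16.7% of all genes tested, and below all Con values for 1, against 16.9%, so 16 members had no overlap, against 33.7% of all genes tested.

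These counts depended on the scaling between libraries. With library totals in place of TMM, 3 members were higher (Atp5o, Cycs and Uqcrb) and 4 were lower (Cox5b, Cox6a2, Cox7a1 and Atp5j), where 5.38% of all genes tested were higher and 16.3% lower. For limma on log2(FPKM + 0.1) the fit gave 0 higher and 3 lower (Cox5b, Cox6a2 and Cox4i2), with 4 and 8 at an unadjusted p under 0.05, and 3.78% of all genes higher and 9.53% lower. With limma on TPM (FPKM rescaled to one total in every library), 0 were higher and 7 were lower (Sdha, Cox7a2l, Cox5b, Uqcr11, Cox6a2, Atp5j and Cox4i2), and 3.12% of all genes were higher and 15.5% lower. The shares of members lower, 8.7% with totals, 6.52% with FPKM and 15.2% with TPM, were thus at or below those of all genes. The median of all genes tested moved with the scaling, to -0.06 with totals, -0.06 with FPKM and -0.09 with TPM. As fitted, 20 members were above 0 and 26 below with totals, 17 and 29 with FPKM and 11 and 35 with TPM. Set against that median, 30 of 46 members stood above it with TMM, 30 with totals, 29 with FPKM and 29 with TPM. A change of scaling alone shifts all genes by nearly the same amount, so these counts are not independent checks. All changes below are on the TMM scale unless stated otherwise.

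**Figure D1:**
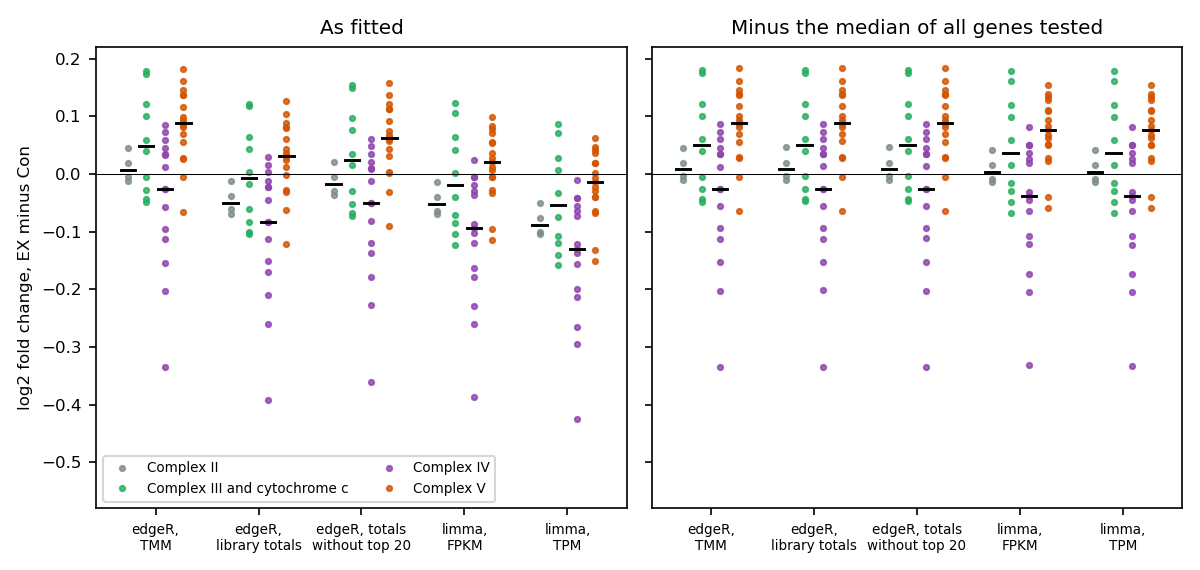
Log2 fold change (EX minus Con) of each of the 46 members tested, by complex, under 5 ways of scaling, as fitted on the left and minus the median of all genes tested on the right; each point is 1 transcript and each black dash the median of a complex. As fitted, the medians sit lower in the other 4 columns than with TMM. Their order, with V highest and IV lowest, is alike in all columns. The edgeR columns differ from each other by a nearly constant shift, as do the limma columns, so a like order among them follows from the method.

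**Figure D2:**
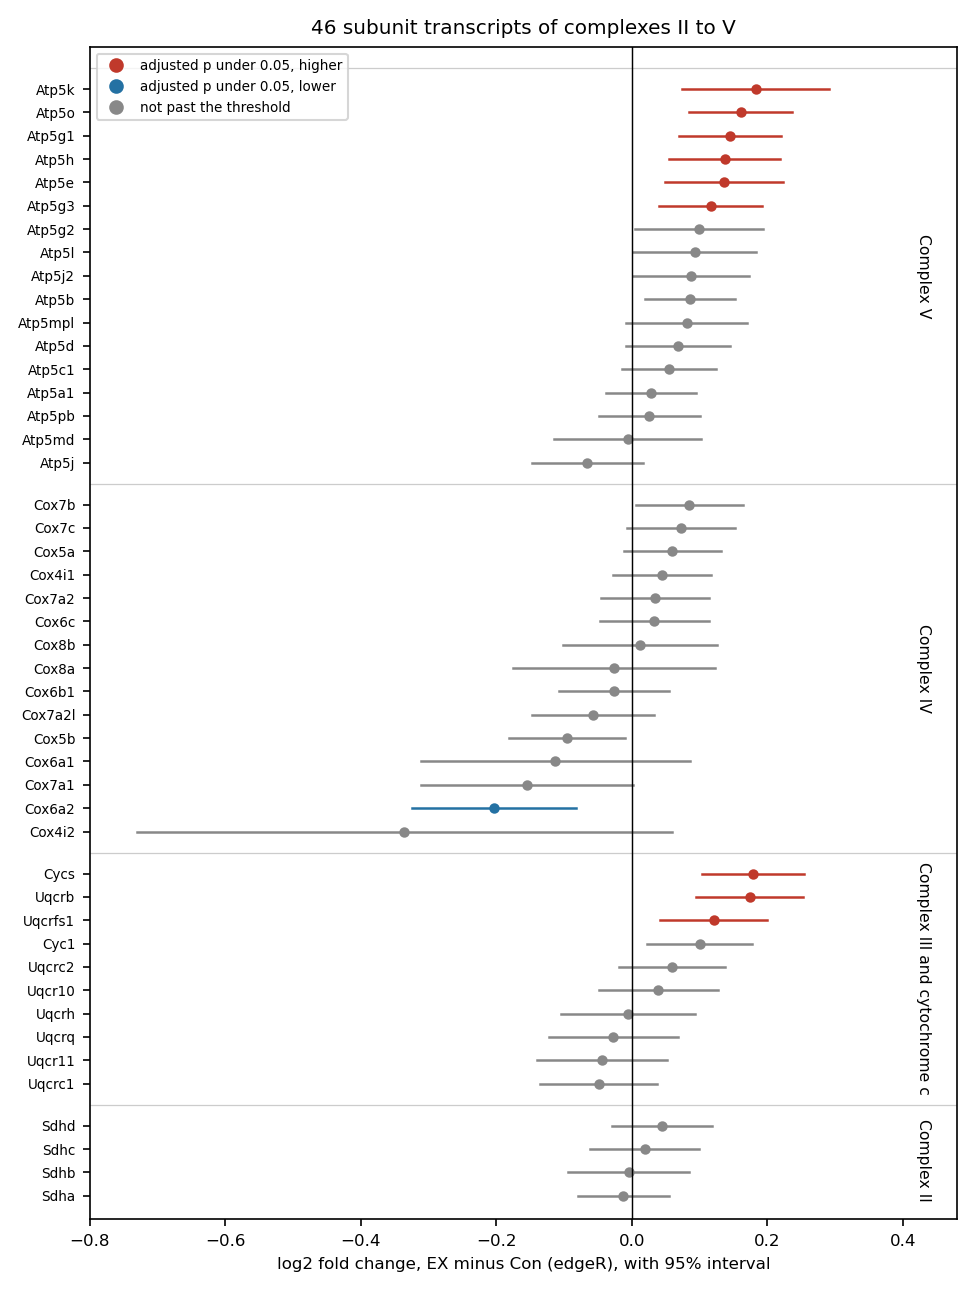
Log2 fold change (EX minus Con) with its 95% interval from edgeR for the 46 members tested, grouped by complex, with red for the 9 higher, blue for the 1 lower and grey for those not past the threshold. On this TMM scale, 15 of 17 points of complex V lie above 0, whereas 7 of 15 of complex IV do. With limma on TPM, 11 of all 46 members are above 0.

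The complexes differed in their counts. None of 4 complex II transcripts passed the test, with no member at an unadjusted p under 0.05 by edgeR or DESeq2 and a median log2 fold change of 0.01. In complex III with cytochrome c, 3 of 10 passed as higher and none as lower, with a median of 0.05. Of 15 complex IV transcripts, none passed as higher (1 at an unadjusted p under 0.05 by edgeR and 1 by DESeq2) and 1 as lower, with a median of -0.03. In complex V, 6 of 17 passed as higher and none as lower, with a median of 0.09. These are shares of 30.0% higher in complex III with cytochrome c and 35.29% in complex V, against 9.11% of all genes tested, and 6.667% lower in complex IV, against 8.8%. The summed level of complex V transcripts was 9650, 9644 and 9531 CPM in Con libraries and 9867, 10190 and 10240 CPM in EX libraries. These groups did not overlap. The sums over all genes tested were also higher without overlap, at 971900 to 981500 CPM in Con and 1008000 to 1026000 CPM in EX libraries. For complex IV the sums were 3674, 3650 and 3468 CPM in Con libraries and 3484, 3570 and 3657 CPM in EX libraries, which overlapped. The difference between complexes was not tested.

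Single libraries weighed on these counts. Without EX replicate 3, 4 members remained higher (Atp5o, Cycs, Uqcrb and Atp5g1), without EX replicate 2 there were 5, and without EX replicate 1 there were 10, while without Con replicate 3 the count was 6. Calls over all genes changed too, from 991 higher to 667 without EX replicate 3, 769 without EX replicate 2, 820 without EX replicate 1 and 894 without Con replicate 3. For complex V alone the count was 2 without EX replicate 3, 3 without EX replicate 2, 3 without Con replicate 3 and 7 without EX replicate 1. The members lower in EX numbered 0 without EX replicate 1 and 3 without Con replicate 3 (Cox5b, Cox6a2 and Cox7a1). Over all genes tested, 7.01% and 8.07% were lower in these fits. EX replicate 3 had the highest value of the 6 libraries for 20 members and Con replicate 3 the lowest for 16. Con replicate 3 also had the shortest effective length implied by the ratio of counts to FPKM for all 46 members with counts in every library, and its part in the counts was not tested. With that length as an offset in edgeR, 7 members were higher and 1 was lower, where 8.38% of all genes tested were higher and 8.24% lower.

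Complex II is the smallest of the 4 groups, and none of its transcripts passed on the TMM scale. Sdha, the flavoprotein that oxidises succinate, was at 1002 ± 7.67 CPM in Con and 993 ± 19.0 CPM in EX muscle (SD, n = 3). Its log2 fold change of -0.01 had a 95% interval from -0.08 to 0.05, but with limma on TPM it was -0.10 and passed as lower. Sdhb, the iron-sulphur subunit and the complex II member with the highest TPM, was at 331.5, 364.7 and 332.5 CPM in Con and 323.8, 365.6 and 336.2 CPM in EX libraries. The groups overlapped throughout, with replicate 2 highest in both, and the log2 fold change was 0.00 in size (SE 0.04, adjusted p = 0.957). Of the membrane anchors, Sdhc had a log2 fold change of 0.02, which turned to -0.04 with library totals and with FPKM and -0.08 with TPM. Sdhd was the only complex II member without overlap, at 246.1 ± 1.97 CPM in Con and 253.8 ± 2.25 CPM in EX muscle, and did not pass the test (log2 fold change 0.04, adjusted p = 0.432). Its sign turned with library totals (-0.01), FPKM (-0.01) and TPM (-0.05).

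Cycs, the soluble carrier cytochrome c, had the clearest rise of the group around complex III. It was at 605, 638 and 661 CPM in Con libraries and 698, 722 and 736 CPM in EX libraries, so every EX library was above every Con library. The rise was 13.2%, a log2 fold change of 0.18 (SE 0.04, adjusted p = 0.000834). Over 18 alternatives its log2 fold change stayed between 0.09 and 0.21 and it lost the call in 3, with adjusted p between 0.000246 and 0.188.

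Uqcrb, a small subunit near the ubiquinone site of complex III, was at 180.3, 192.6 and 183.1 CPM in Con and 209.5, 208.1 and 209.9 CPM in EX libraries. The EX libraries lay close together and above all Con libraries, and the log2 fold change was 0.17 (SE 0.04, adjusted p = 0.00179). Uqcrfs1, the Rieske iron-sulphur protein that passes electrons to cytochrome c1, was at 397, 424 and 443 CPM in Con and 467, 457 and 451 CPM in EX libraries. The gap between the highest Con and the lowest EX library was small, and the log2 fold change of 0.12 (SE 0.04, adjusted p = 0.0285) lost its call in 11 of 18 alternatives.

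Cyc1, the cytochrome c1 that reduces cytochrome c, was just outside the threshold at 316.8 ± 6.39 CPM in Con and 339.6 ± 14.2 CPM in EX muscle (SD, n = 3, log2 fold change 0.10, adjusted p = 0.0669), and its groups did not overlap. The core proteins went apart in sign without passing, with Uqcrc1 at -0.05 and Uqcrc2 at 0.06 on the log2 scale. With limma on TPM both were below 0, at -0.14 and -0.03. Uqcrh, the hinge protein and the complex III member with the highest TPM, was at 309.9, 267.7 and 256.9 CPM in Con and 279.7, 279.1 and 271.7 CPM in EX libraries. Con replicate 1 stood above all other libraries and the other two Con libraries below them, and the log2 fold change was -0.01 (SE 0.05, adjusted p = 0.953). The remaining small subunits Uqcr10, Uqcr11 and Uqcrq had log2 fold changes of 0.04, -0.04 and -0.03 and overlapped between groups.

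Complex IV held the only member that passed as lower. Cox6a2, the heart and skeletal muscle isoform of subunit 6a, was at 642, 533 and 484 CPM in Con libraries and 458, 492 and 489 CPM in EX libraries. Con replicate 1 was far above the rest and Con replicate 3 lay inside the EX range, so the groups overlapped. The log2 fold change was -0.20 (SE 0.06, adjusted p = 0.0148), and without Con replicate 1 it was -0.09 (adjusted p = 0.0931). Without EX replicate 1 it was -0.17 (adjusted p = 0.106). DESeq2 gave the same size with an adjusted p of 0.363, edgeR with a robust prior gave 0.355, and over 18 alternatives adjusted p ran from 5.167e-05 to 0.363. Cox6a1, the liver isoform, was far less abundant, at 14.4, 14.0 and 11.3 CPM in Con and 11.5, 12.7 and 12.4 CPM in EX libraries. Its groups overlapped and its log2 fold change was -0.11 (SE 0.10, adjusted p = 0.465).

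For subunit 7a, the muscle isoform Cox7a1 was at 102.6, 134.0 and 92.2 CPM in Con and 100.4, 97.7 and 97.5 CPM in EX libraries. Con replicate 2 stood alone at the top, with 2107 counts against 1430 and 1470 in the other Con libraries. The log2 fold change was -0.15 (SE 0.08, adjusted p = 0.17), and it was 0.02 without Con replicate 2 (adjusted p = 0.887). It passed as lower without Con replicate 3 (-0.27, adjusted p = 0.0028) and without Con replicate 1 (-0.20, adjusted p = 0.0218), where it was the only lower member. The liver isoform Cox7a2 was at 158.9, 156.5 and 159.9 CPM in Con and 158.4, 165.3 and 162.9 CPM in EX libraries. Those groups overlapped, with a log2 fold change of 0.03 (SE 0.04, adjusted p = 0.606).

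For subunit 8, Cox8b, the heart and muscle isoform, was at 109.8, 120.1 and 109.1 CPM in Con and 108.7, 105.7 and 127.4 CPM in EX libraries. The highest and the lowest of the 6 libraries were both EX, and the log2 fold change was 0.01 (SE 0.06, adjusted p = 0.914). Cox8a, the liver isoform, was at 22.5, 21.8 and 24.8 CPM in Con and 21.2, 22.4 and 24.4 CPM in EX libraries, with overlap and a log2 fold change of -0.03 (SE 0.07, adjusted p = 0.848).

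For subunit 4, the common isoform Cox4i1 was at 672, 692 and 670.2 CPM in Con and 670.0, 703 and 725 CPM in EX libraries, with overlap and a log2 fold change of 0.04 (SE 0.04, adjusted p = 0.427). Cox4i2, an isoform best known from lung, was at 2.58, 3.12 and 2.38 CPM in Con and 2.21, 2.29 and 1.91 CPM in EX libraries. All EX libraries were below all Con libraries, but these levels rest on between 30 and 49 counts. The log2 fold change was -0.34 (SE 0.19, adjusted p = 0.248), and limma on FPKM gave -0.39 with an adjusted p of 0.0431.

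Per length, on the TPM scale, the muscle isoforms of subunits 6a, 7a and 8 were the higher of each pair in both groups. For subunit 7a this turned by counts, where Cox7a1 made 40.65% of the pair in Con and 37.8% in EX muscle, against 81.87% and 79.82% by TPM. The ratio of Cox6a2 to Cox6a1 was 32.5, 27.8 and 31.0 in Con and 29.0, 28.3 and 28.8 in EX libraries, the ratio of Cox8b to Cox8a was 16.9, 19.4 and 16.2 in Con and 18.1, 16.8 and 17.8 in EX libraries, and the ratio of Cox7a1 to Cox7a2 was 4.16, 5.60 and 4.03 in Con and 4.18, 3.94 and 3.77 in EX libraries. In each of these the EX values overlapped those of Con. The log2 difference of the ratios, EX minus Con, was -0.08 for Cox6a2 to Cox6a1 (exact two-sided permutation test, p = 0.4, adjusted over the 4 pairs 0.533). It was 0.01 for Cox8b to Cox8a (exact permutation p = 1.0) and -0.20 for Cox7a1 to Cox7a2 (exact permutation p = 0.3, adjusted 0.533). The last difference was -0.05 without Con replicate 2 and -0.29 without Con replicate 3. That of Cox8b to Cox8a was 0.08 without Con replicate 2 and -0.05 without Con replicate 3, and that of Cox6a2 to Cox6a1 was -0.03 without Con replicate 1 and -0.15 without Con replicate 2. Cox4i2 made between 0.272% and 0.466% of the summed TPM of both Cox4 isoforms, and its ratio to Cox4i1 was lower in all EX libraries than in any Con library (log2 difference -0.37, exact permutation p = 0.1, adjusted 0.4). With 3 mice against 3 the smallest p of this test is 0.1, so no pair could pass 0.05.

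**Figure D3:**
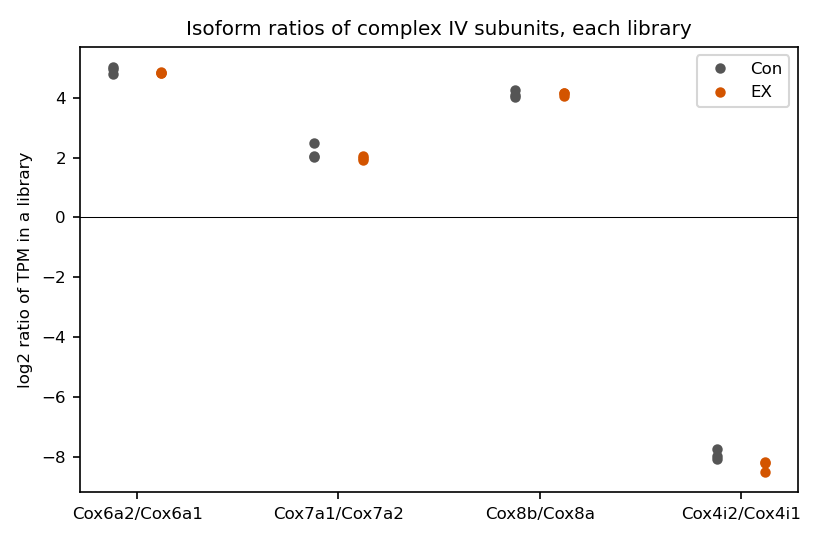
Log2 ratio of the TPM of 2 isoforms of a complex IV subunit in each library, for 4 pairs, with Con in grey and EX in orange. The muscle isoforms of subunits 6a, 7a and 8 lie above 0 in all 6 libraries with overlapping groups, although by counts Cox7a1 makes between 36.58% and 46.14% of its pair, and Cox4i2 to Cox4i1 lies between -8.52 and -7.74 with the EX points below the Con points.

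Among the other complex IV transcripts, Cox7c, a small subunit and the highest member of the complex in TPM, was at 331.9, 343.9 and 332.5 CPM in Con and 341.7, 344.3 and 374.0 CPM in EX libraries. EX replicate 3 stood above the other 5 libraries, which overlapped, and the log2 fold change was 0.07 (SE 0.04, adjusted p = 0.214). Cox7b (0.08) and Cox5a (0.06) had EX values above all Con values without passing, with adjusted p of 0.134 and 0.261. The sign of Cox5a turned with limma on FPKM (-0.01) and on TPM (-0.04). Cox5b was at -0.10 on the log2 scale (adjusted p = 0.114), and it passed as lower with library totals, with totals without the 20 most abundant genes, with limma on FPKM and on TPM, and without Con replicate 3. The log2 fold changes of Cox6c, Cox6b1 and Cox7a2l, the last of which is known for joining complexes into supercomplexes, lay between -0.06 and 0.03, and Cox7a2l passed as lower with limma on TPM (-0.16).

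Complex V had 6 higher transcripts against 3 in complex III with cytochrome c. Library totals turned this to 1 against 2, and leaving out EX replicate 3 made it 2 against 2. In the c ring, the rotor that protons turn, 3 genes encode the same mature protein with different import sequences. Atp5g1 was at 353.5, 365.0 and 343.7 CPM in Con and 380.5, 401.5 and 392.4 CPM in EX libraries. All EX libraries were above all Con libraries, with a log2 fold change of 0.14 (SE 0.04, adjusted p = 0.00571). Atp5g3, the most abundant of the 3, was at 507, 545 and 496 CPM in Con and 556, 555 and 567 CPM in EX libraries. EX values again stood above Con values, Con replicate 2 being nearest, with a log2 fold change of 0.12 (SE 0.04, adjusted p = 0.0284), and the call was lost in 9 of 18 alternatives. Atp5g2 was at 142.6 ± 6.96 CPM in Con and 152.7 ± 8.94 CPM in EX muscle (SD, n = 3), with overlap, a log2 fold change of 0.10 and an adjusted p of 0.144. Within the ring the shares of summed TPM overlapped between the groups for all 3 genes. Atp5g1 made 29.7% ± 0.34 of it in Con and 30.2% ± 0.43 in EX muscle, Atp5g2 17.5% ± 0.29 and 17.2% ± 0.65, and Atp5g3 52.8% ± 0.56 and 52.6% ± 0.93 (SD, n = 3).

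The peripheral stalk holds the F1 head still against the rotor. Atp5o encodes the oligomycin sensitivity protein (Atp5po), which the study followed by RT-qPCR of its RNA and at the protein level. Atp5o was at 381.6, 405.0 and 405.0 CPM in Con and 428.2, 450.1 and 453.9 CPM in EX libraries. Every EX library was above every Con library, and the log2 fold change was 0.16 (SE 0.04, adjusted p = 0.00254), with the call lost in 3 of 18 alternatives. Atp5h, subunit d of the stalk, was at 190.2, 189.6 and 203.0 CPM in Con and 207.6, 214.5 and 219.1 CPM in EX libraries. These groups did not overlap either, with a log2 fold change of 0.14 (SE 0.04, adjusted p = 0.0155), and the call was lost in 7 of 18 alternatives. Atp5pb, subunit b of the stalk, was at 0.03 on the log2 scale (adjusted p = 0.68). Atp5j, coupling factor 6, was at 222.7 ± 9.87 CPM in Con and 212.6 ± 4.36 CPM in EX muscle (SD, n = 3, log2 fold change -0.07, adjusted p = 0.276). Atp5j and Atp5md were the only members of complex V below 0, and Atp5j passed as lower with library totals and with limma on TPM.

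In the F1 head, which makes ATP, all 5 subunit transcripts were above 0 and 1 passed, whereas 2 of the 5 were below 0 with library totals and 4 with TPM. Atp5e, the small epsilon subunit of the central stalk, was at 173.7, 191.6 and 182.1 CPM in Con and 192.0, 202.5 and 207.6 CPM in EX libraries. The lowest EX library was 192.0 CPM and the highest Con library 191.6 CPM, so the groups were barely apart, with a log2 fold change of 0.14 (SE 0.04, adjusted p = 0.0242) and the call lost in 10 of 18 alternatives. Atp5b, the catalytic beta subunit and the most abundant member in CPM, was just outside the threshold at 2850 ± 76.8 CPM in Con and 3024 ± 58.7 CPM in EX muscle (SD, n = 3, log2 fold change 0.09, adjusted p = 0.067). Its EX libraries were all above its Con libraries. Atp5a1, the alpha subunit, was at 0.03, Atp5c1, the gamma subunit, at 0.05 and Atp5d, the delta subunit, at 0.07 on the log2 scale.

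Among the other membrane subunits, Atp5k, subunit e, which takes part in the pairing of ATP synthases, was at 55.6, 64.2 and 57.1 CPM in Con and 67.3, 64.6 and 69.1 CPM in EX libraries. EX replicate 2 was only just above Con replicate 2, and the log2 fold change was 0.18 (SE 0.05, adjusted p = 0.0155). The call was lost in 9 of 18 alternatives, DESeq2 and the length offset among them, and its implied length of between 32.5 and 38.7 bases was the shortest of all members. Atp5l encodes subunit g (Atp5mg), also followed by the study by RT-qPCR and at the protein level. Atp5l was at 307.5, 333.7 and 332.5 CPM in Con and 321.4, 346.4 and 370.8 CPM in EX libraries. Its groups overlapped, and the log2 fold change was 0.09 (SE 0.04, adjusted p = 0.154), 0.14 without EX replicate 1 (adjusted p = 0.0348). Atp5md, a small accessory subunit and the complex V member with the highest TPM, was at 117.6, 136.6 and 112.3 CPM in Con and 118.0, 124.3 and 122.9 CPM in EX libraries. Con replicates 2 and 3 enclosed all other libraries, with a log2 fold change of -0.01 (SE 0.05, adjusted p = 0.953). Atp5j2, subunit f, and Atp5mpl, a further accessory subunit, were at 0.09 and 0.08 on the log2 scale, with adjusted p of 0.154 and 0.216.

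The primers that the study used for RT-qPCR of these Atp5mg and Atp5po transcripts place both on the sequence. Both pairs matched coding exons of the GENCODE M21 annotation on GRCm38, on the minus strand of each chromosome.
Atp5mg forward: atggccaagttcatccgtaa
Atp5mg reverse: cagctcaaccttggcgtagt
Atp5po forward: ctggaccaggtggagaagg
Atp5po reverse: ggcttttcactttgacggtg
The Atp5mg forward primer lay in exon 1 of 3 (chr9:44920642-44920661) and the reverse primer in exon 2 (chr9:44914750-44914769), for a product of 114 bases. The Atp5po forward primer lay in exon 3 of 7 (chr16:91928916-91928934) and the reverse primer in exon 4 (chr16:91926907-91926926), for a product of 112 bases. Atp5l pseudogenes are annotated on other chromosomes, and their match to the primers was not analysed here.

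**Figure D4:**
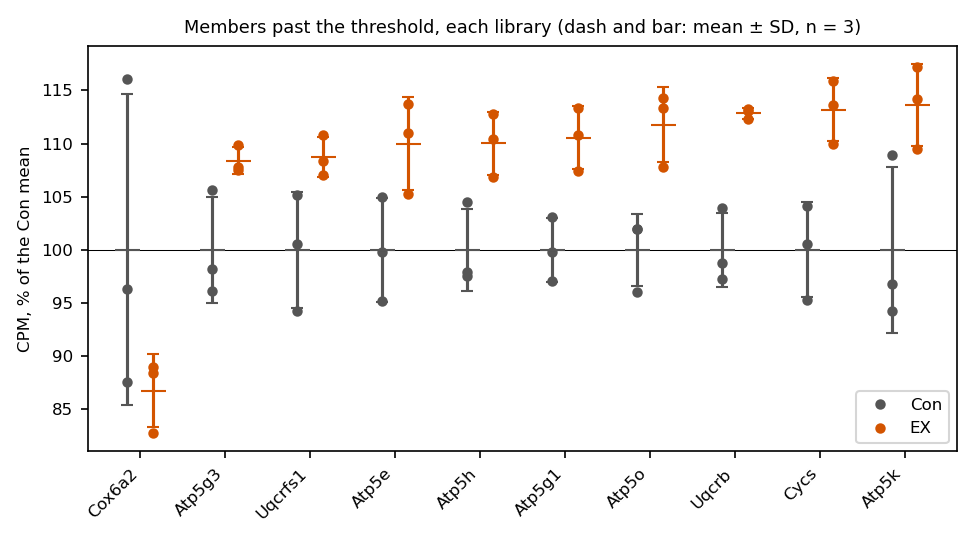
CPM of the 10 members past the threshold in each library, as a percentage of the Con mean of that gene, with a dash and bar for the mean ± SD (n = 3). The 9 higher members have EX points above all Con points, with the smallest gaps for Atp5e and Atp5k, whereas the Con points of Cox6a2 spread widely, 1 of them inside the range of the EX points.

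Levels per length can be compared between members on the TPM scale, with the limit that very short implied lengths make TPM high. Such lengths also differed between libraries, from 32.5 to 38.7 bases for Atp5k, 58.4 to 67.0 for Cox8b and Atp5md and 60.4 to 69.2 for Cox7a1. Complex V summed to 29090 ± 1054 TPM in Con and 28680 ± 264 TPM in EX muscle, and complex IV to 23850 ± 520 TPM and 21840 ± 243 TPM (SD, n = 3). Complex III with cytochrome c summed to 9354 ± 111 TPM and 8951 ± 147 TPM and complex II to 2063 ± 51.6 TPM and 1942 ± 27.5 TPM. On this scale all 4 sums were lower on average in EX muscle, without overlap for complexes II, III with cytochrome c and IV, whereas on the TMM scale the CPM sums of complex V and of complex III with cytochrome c (3482 to 3569 in Con and 3652 to 3731 in EX libraries) were higher without overlap, and that of complex II overlapped (1802 to 1861 in Con and 1786 to 1878 in EX libraries). The CPM sum over all genes tested was also higher without overlap, at 971900 to 981500 in Con and 1008000 to 1026000 in EX libraries. The highest members in Con muscle were Cox7c at 3762 ± 156 TPM and Atp5md at 2892 ± 255 TPM, and the lowest tested was Cox4i2 at 9.89 ± 1.31 TPM. Complex II members lay between 378 TPM (Sdhd) and 672 TPM (Sdhb) in Con muscle.

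**Figure D5:**
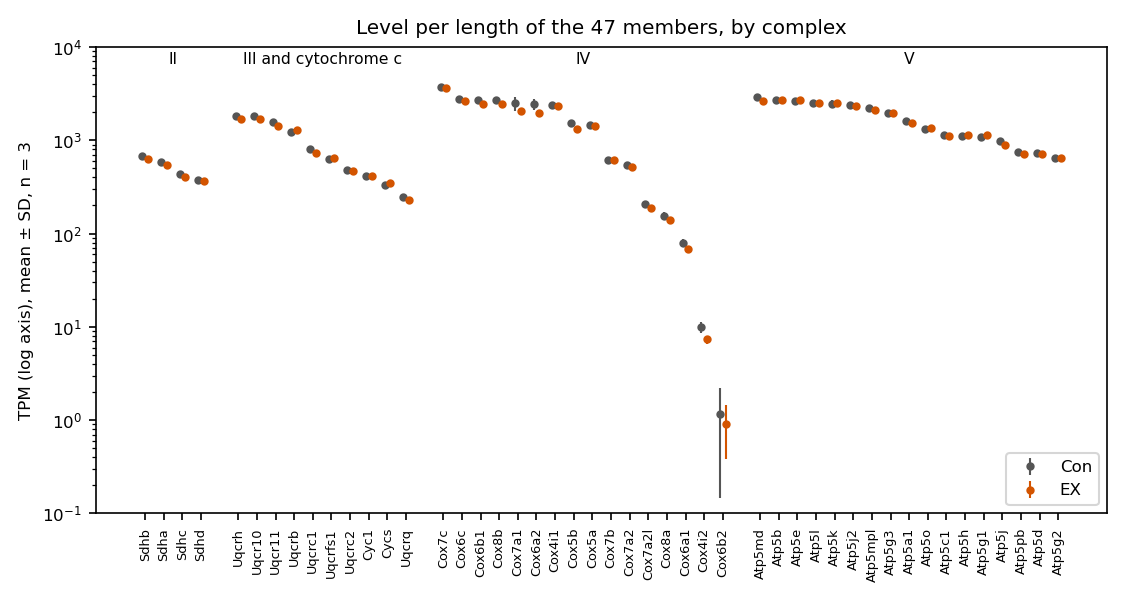
TPM of all 47 members on a log axis, mean ± SD (n = 3) for Con (grey) and EX (orange), ordered by level within each complex. Complex II and III members lie between 228 and 1841 TPM, whereas complex IV spans from Cox7c at 3762 TPM in Con muscle to Cox6b2 at 1.18 TPM.

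Genes that work with these complexes were described from lists. Atpif1, the inhibitor that stops ATP synthase from running backwards, had a log2 fold change of 0.14 with overlapping groups (adjusted p = 0.341). Of 35 assembly factors of complexes II to V, 3 (8.571%, against 9.11% of all genes tested) passed as higher and none as lower (2 at an unadjusted p under 0.05 by edgeR and 1 by DESeq2), with a median log2 fold change of 0.03. The largest of the 3 was Uqcc2, a complex III assembly factor, at 78.1 ± 1.34 CPM in Con and 91.1 ± 3.72 CPM in EX muscle (SD, n = 3, log2 fold change 0.22, adjusted p = 0.000718), followed by Taco1, a translational activator of a complex IV subunit (0.21), and Tmem70, an ATP synthase assembly factor (0.19). Of 39 genes named as complex I subunits, 5 (12.82%, against 9.11%) passed as higher (Ndufa11, Ndufa2, Ndufb4c, Ndufc1 and Ndufc2) and 1 as lower, with a median of 0.06. The lower one was Ndufa4l2, a paralog of Ndufa4, which itself is now counted with complex IV. Whether complexes II to V differ from complex I was not tested.

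Markers of other cell types also differed between the groups. Of 7 macrophage markers tested, 6 were higher, and the summed level of the 10 listed was between 44.1 and 48.6 CPM in Con and between 78.9 and 86.2 CPM in EX libraries. Of 9 tendon and fibroblast markers tested, 6 were higher, with sums between 692 and 703 CPM in Con and between 1078 and 1116 CPM in EX libraries. Of 10 endothelial markers, 6 were lower and 1 was higher (Cldn5), with sums between 921 and 934 CPM in Con and between 802 and 821 CPM in EX libraries. Of 7 adipocyte markers tested, 5 were higher and 1 was lower (Lpl), with sums between 1110 and 1165 CPM in Con and between 1117 and 1118 CPM in EX libraries. Most of that sum came from Plin4, Lpl and Fabp4, whereas Adipoq (adiponectin) was at 1.43 ± 0.35 CPM in Con and 3.32 ± 0.43 CPM in EX muscle (SD, n = 3) and Cfd (adipsin) at 9.86 to 10.8 CPM in Con and 23.5 to 26.2 CPM in EX libraries. No listed marker in the table was at 0 in every library. The part of these markers in the subunit values was not tested.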

How the data were processed

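The authors extracted total RNA, made DNBseq libraries read from both ends, removed low-quality reads and mapped the others with HISAT. Their text names GRCm39, whereas the submitters' processing notes name GRCm38.p6, cutadapt, featureCounts and MultiQC. How reads shared between genes and strand were handled is not given in the sources used here. The authors deposited, for each gene and library, an estimated count that is not normalized, with FPKM and TPM values normalized from it. Their 6 columns of group means were not used.

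The estimated counts were rounded to whole numbers (1 member had values that were not whole) and tested with edgeR 4.0.16 in R 4.3.3 (glmQLFit and glmQLFTest, TMM, Benjamini-Hochberg over all genes tested, threshold 0.05, no fold limit). A mean over the libraries of 1 FPKM or more was required, which 10883 of 16759 genes met. Each library stands for 1 mouse and no batch is given. The edgeR p-values rest on the spread between these 3 mice per group, with the variance of each gene adjusted toward that of the other genes tested. Isoform ratios were compared by exact permutation tests. Alternatives used DESeq2 1.42.0, limma 3.58.1 with a pseudocount of 0.1 or 1, other scalings and filters, an implied-length offset, a robust prior, a replicate block and each library left out. Values in every library are given for members past the threshold, isoform pairs, the member highest in TPM of each complex, Atp5mg and Atp5po. Members and lists were chosen with earlier results of these data known. Older symbols stand as in the table. Promoters are from RefSeq (GRCm38.p6), with 5 motifs searched on both strands. The tests were also run on simulated data in which all genes had the same biological spread and no library stood out. Such data do not bear on the calls that single libraries or the scaling moved.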

Additional observations from a re-analysis of the deposited data

How the results depend on the processing

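The number of members higher in EX was 9, and it was 0 with limma on FPKM (either pseudocount) or TPM and 3 with library totals. The number lower was 1, and it was 0 with DESeq2 or a robust prior, 2 with totals without the 20 most abundant genes, 3 with FPKM, 4 with totals and 7 with TPM, while 9.53%, 16.3% and 15.5% of all genes were lower there. In complex III with cytochrome c, 3 higher became 0 with FPKM or TPM, and 1 was lower with TPM. In complex IV, 1 lower became 0 with DESeq2 or a robust prior, 2 without the top 20, 3 with totals or FPKM and 4 with TPM. In complex V, 6 higher became 0 with FPKM or TPM and 1 with totals, and 1 was lower with TPM and with totals. In complex II, 1 was lower with TPM. Assembly factors had 3 higher, 1 with FPKM, and 0 lower, 2 with FPKM and 1 without the top 20. Complex I subunits had 5 higher, 3 with DESeq2 or without the top 20 and 0 with FPKM. With TPM, assembly factors had 0 higher and 3 lower and complex I subunits 0 higher and 4 lower, and with totals these were 3 and 3, and 1 and 1. Without EX replicate 3, 1 complex I subunit was higher. The median of all genes tested was between -0.06 and -0.09 with totals, FPKM (pseudocount 0.1) and TPM.

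Leaving out 1 library gave between 4 and 10 members higher and between 0 and 3 lower, between 0 and 3 lower in complex IV, and between 2 and 7 higher in complex V. Over all genes tested, these fits gave between 667 and 934 higher and between 677 and 923 lower. A fit with the replicate number as a block gave 9 higher and 1 lower among the members and changed none of their calls, and 909 higher and 873 lower over all genes. Same-numbered libraries had correlations of -0.08, -0.05 and -0.07 of their deviations. With 3 libraries per group, such values cannot tell whether the numbers pair the mice.

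Signs turned for several named members. With limma on FPKM at the pseudocounts 0.1 and 1, on TPM and with totals, log2 fold changes were -0.0294, -0.0293, -0.0647 and -0.0226 for Cox7a2, -0.0866, -0.0866, -0.1220 and -0.0445 for Cox8b, and -0.0195, -0.0195, -0.0549 and -0.0119 for Cox4i1. Cox8b was also at -0.0303 with the length offset, -0.0023 with the stricter filter and -0.0127 without the top 20. Cox7c was at -0.0060 with FPKM at either pseudocount and -0.0414 with TPM, and Atp5l at -0.0148 with TPM. With TPM, Atp5b was at -0.01, Cox7b at -0.01, Atp5j2 at -0.02 and Atp5mpl at -0.04. Leaving out 1 library gave between -0.2695 and 0.0159 for Cox7a1, between -0.0761 and 0.0631 for Cox8b, between -0.0843 and 0.0311 for Cox8a, between -0.0556 and 0.0389 for Sdhb, between -0.0612 and 0.0738 for Uqcrh and between -0.0666 and 0.0797 for Atp5md. Low counts limit the precision of Cox4i2 and Cox6a1.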
